A study of Mus musculus with 6 samples.

Results

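Collagen chains and the enzymes that modify, cross-link or cleave them were followed in liver RNA of 3 telmisartan-treated and 3 vehicle-treated STAM mice. The members are the genes with a symbol of the collagen chain pattern (Col, a type number, a, a chain number) and 15 enzymes and helpers, each measured by its brightest probe set among those annotated to exactly 1 gene symbol. They came to 57 genes, 44 chains and 13 enzymes or helpers, of 22087 genes with such a probe set. Loxl2, a lysyl oxidase, and Plod3, a lysyl hydroxylase, have only probe sets that carry a further symbol and were not analysed here.

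All 6 mice were C57BL/6J males given streptozotocin, a toxin of the insulin-producing beta cell, at 2 days of age (200 μg) and a high-fat diet (60 kcal% fat) from 4 weeks of age. The telmisartan group took the angiotensin II receptor blocker by mouth at 5 mg/kg per day between 6 and 12 weeks of age, and the vehicle group took 0.5% carboxymethyl cellulose alone. Each mouse gave 1 microarray (Affymetrix Mouse Gene 2.0 ST), and the 3 arrays per group came from 7 mice per group. The model is diabetic and male, and no healthy liver was on the arrays, so the values compare treated with untreated disease only.

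Values are log2 of the deposited intensity. The median log2 intensity of the 6 arrays lay between 2.85 and 2.93, and the arrays correlated with each other at 0.984 to 0.991 across probe sets. The 14 hepatocyte markers had means from 4.42 to 12.9, and 0 of them differed between the groups at the thresholds used here. A gene is called higher or lower with telmisartan where limma gave an unadjusted p under 0.05 and the fold reached 1.2, as the study set them. After Benjamini-Hochberg adjustment 0 probe sets passed 0.05 with limma (lowest adjusted p = 0.0725), while 1617 of 23094 had an unadjusted p under 0.05. The number of arrays limits the precision throughout.

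Collagens are helical proteins of repeated glycine triplets, built from alpha chains that differ by type. Fibrillar chains (types I, III and V in liver) form the scar fibres of fibrosis and are made mainly by hepatic stellate cells and portal fibroblasts, while type IV forms the network of basement membranes. Before the chains can fold, prolyl 4-hydroxylase adds hydroxyl groups to their prolines in the endoplasmic reticulum, with P4ha1, P4ha2 or P4ha3 as its catalytic subunit. Lysyl hydroxylases (Plod) prepare lysines for cross-linking, the chaperone Serpinh1 (HSP47) holds the folded helix, Bmp1 and its enhancers Pcolce and Pcolce2 trim the C-terminal propeptide outside the cell, and the lysyl oxidases (Lox, Loxl1, Loxl3, Loxl4) start the cross-links of the finished fibre.

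Of the 57 genes, 2 were lower with telmisartan, P4ha1 and Col14a1, and 2 were higher, Col5a3 and Col17a1. Together these are 7.02% of the members, against 6.55% of all 23094 probe sets called in either direction (3.48% lower and 3.07% higher), so the members as a group were called about as often as any other probe sets. The telmisartan and vehicle arrays did not overlap for 5 of the 57 genes (8.77%), the 4 named and Col18a1, against 12.3% of all probe sets. The median log2 fold change was -0.04 over the members and -0.00018 over all probe sets. The largest single change was the fall of P4ha1, while the main liver chains of types I, III and IV did not pass the test.

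**Figure D1:**
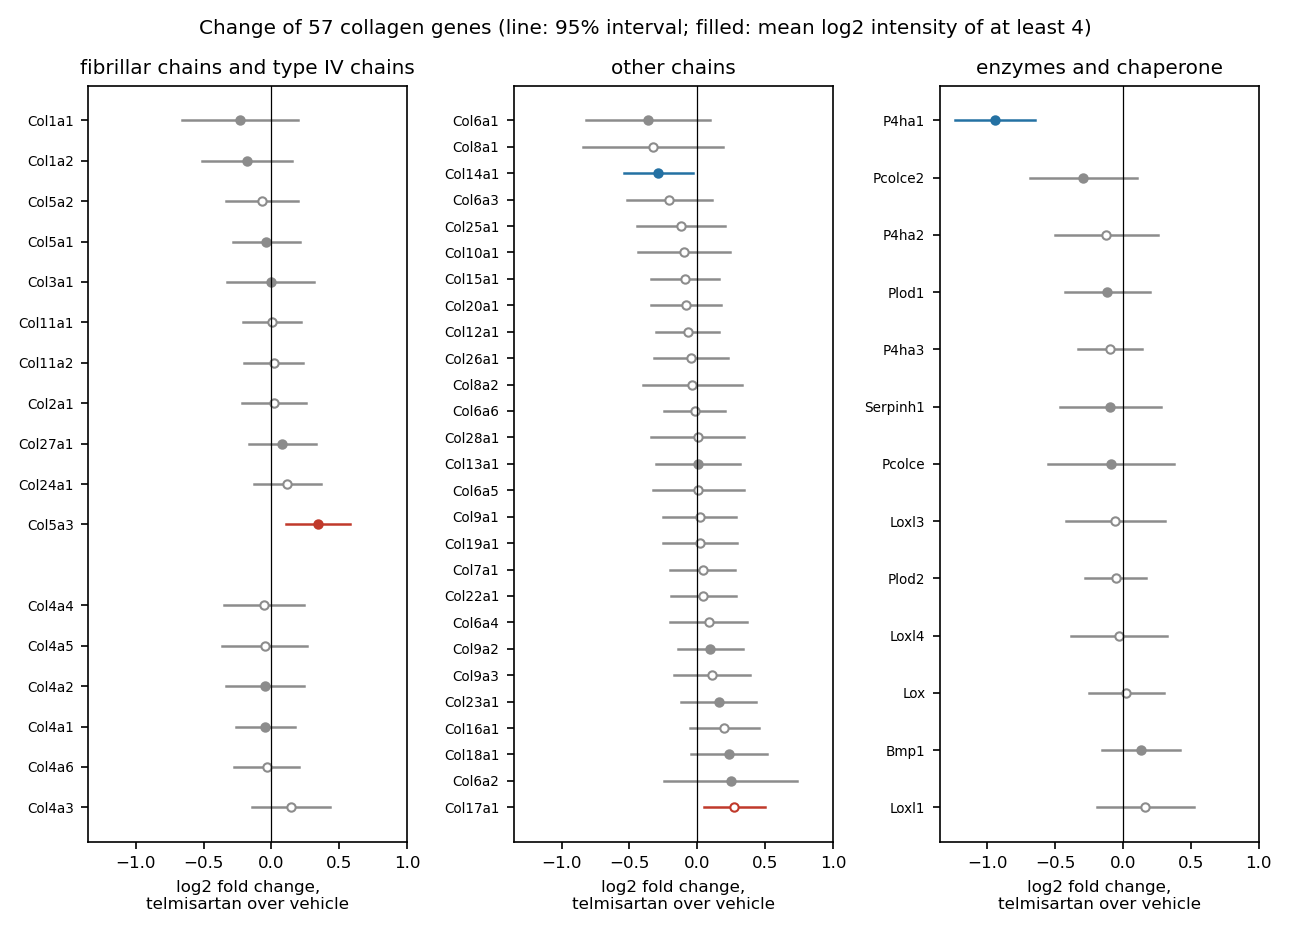
Log2 fold change, telmisartan over vehicle, of the 57 genes in 3 panels (fibrillar and type IV chains, other chains, enzymes and chaperone), with the limma 95% interval as a line. Blue marks genes called lower, red genes called higher and grey the rest, and open circles have a mean log2 intensity under 4. P4ha1, at -0.94, stands apart from all other members, which lie between -0.36 and 0.34.

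P4ha1, the prolyl 4-hydroxylase subunit that most cells rely on, had log2 intensities of 5.28, 5.32 and 5.08 in telmisartan-treated livers 1 to 3, against 6.37, 6.13 and 6.00 in vehicle-treated livers 1 to 3. The highest treated liver was below the lowest untreated one. The means were 5.23 ± 0.13 with telmisartan and 6.17 ± 0.18 with vehicle (SD, n = 3 each), a log2 fold change of -0.94 (95% interval -1.24 to -0.65), which is an intensity 0.52 times that of the vehicle group. By its unadjusted p of 6.45e-05 (limma adjusted p = 0.393) P4ha1 held rank 2 of the 23094 probe sets, and by size it was the fall of rank 18. Its call was made without any 1 of the arrays, with changes from -1.02 to -0.84, and with the methods' t-test (unadjusted p of 0.00181).

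The other catalytic subunits did not move with it past the thresholds. P4ha2 was at 3.26, 3.76 and 3.24 in telmisartan-treated livers, against 3.73, 3.41 and 3.49 in vehicle-treated livers, with the groups overlapping and a difference of -0.12 (95% interval -0.50 to 0.25). P4ha3 was at 2.52, 2.63 and 2.63 with telmisartan, against 2.63, 2.64 and 2.79 with vehicle, a difference of -0.09 (95% interval -0.33 to 0.14). Both intensities were low, and P4ha3 averaged below the array medians. The difference in response between P4ha1 and its paralogs was itself not tested.

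P4ha1 is a known target of hypoxia-inducible factors, which bind the core ACGTG or GCGTG. The 250 bases before the annotated start (RefSeq, GRCm38.p6) are shown for the 3 subunits, since only 1 of them was called, with each match to either core on either strand in capitals. The windows are chr10:59323046-59323295 on the plus strand for P4ha1, chr11:54100674-54100923 on the plus strand for P4ha2 and chr7:100285270-100285519 on the plus strand for P4ha3.
P4ha1: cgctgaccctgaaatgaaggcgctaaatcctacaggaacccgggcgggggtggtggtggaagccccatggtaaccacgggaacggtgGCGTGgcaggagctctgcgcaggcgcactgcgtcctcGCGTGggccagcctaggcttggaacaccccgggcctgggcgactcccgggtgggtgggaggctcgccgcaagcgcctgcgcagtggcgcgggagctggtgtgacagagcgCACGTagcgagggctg
P4ha2: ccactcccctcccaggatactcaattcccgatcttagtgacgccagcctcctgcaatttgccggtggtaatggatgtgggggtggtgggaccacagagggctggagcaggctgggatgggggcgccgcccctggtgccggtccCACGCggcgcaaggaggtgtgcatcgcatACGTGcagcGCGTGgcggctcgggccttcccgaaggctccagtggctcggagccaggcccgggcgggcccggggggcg
P4ha3: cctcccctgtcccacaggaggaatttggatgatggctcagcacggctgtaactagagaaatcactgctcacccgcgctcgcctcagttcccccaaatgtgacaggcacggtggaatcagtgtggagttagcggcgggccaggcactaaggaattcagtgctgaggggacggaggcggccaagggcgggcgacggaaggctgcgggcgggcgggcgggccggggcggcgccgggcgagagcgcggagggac

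The windows of P4ha1 and P4ha2 held 3 matches each and that of P4ha3 held 0. At least 3 matches were found in 6.58% of all 32851 windows of this length, and at least 1 in 38.6%. A CACGTG would count as 2 overlapping matches, and none of the 3 windows printed has one. Promoter entries were matched for 43 of the 57 genes, and 17 of their 46 windows held a match. A match is a description of the letters, and P4ha2 has as many as P4ha1. A list of targets of hypoxia-inducible factors was also read, with all 57 members left out of it. Of its 17 measured genes, among them Vegfa, Slc2a1 and Ldha, 0 were called in either direction. Of all probe sets, 6.55% were called. The median log2 fold change of the 17 targets was -0.02. Whether hypoxia-inducible factors had a part in the change of P4ha1 was not tested.

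Col14a1, a chain that associates with the surface of collagen fibrils and is made by fibroblasts and stellate cells, was lower with telmisartan. It was at 5.59, 5.65 and 5.76 in telmisartan-treated livers, against 5.99, 6.06 and 5.81 in vehicle-treated livers. The groups did not overlap, but telmisartan 3 and vehicle 3 were almost level. The difference was -0.29 on the log2 scale (standard error 0.11), with a limma p of 0.0317 before adjustment, and the call was lost without telmisartan 1 or 2 or vehicle 1 or 2 (p up to 0.107). The fold is 0.819 of the vehicle level, just past the threshold of 1.2.

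On the same arrays, 4 of 17 markers of stellate cells and fibroblasts were lower and 0 higher, with a median log2 fold change of -0.18. Of all probe sets, 3.48% were called lower. The marker lists were chosen with earlier results of these data known, so their counts are not independent of these values. The summed intensity of these markers was 741 to 972 in telmisartan-treated livers, against 928 to 1190 in vehicle-treated livers, so that the groups overlapped. Markers of liver endothelial cells were lower for 11 of 15 genes, with a median of -0.50 and summed intensities of 878 to 1352 with telmisartan, against 1359 to 1722 with vehicle. By the methods' t-test 0 of the stellate and 4 of the endothelial markers were lower. That test called 735 of all 23094 probe sets in either direction. Markers of Kupffer cells were lower for 3 of 14 (median -0.13), and for 1 by the methods' t-test. Markers of lymphocytes (10 genes, median -0.01), neutrophils (7 genes, median -0.03) and cholangiocytes (7 genes, median 0.16) gave 0 calls in either direction. The part of these cell types in the changes of Col14a1 and P4ha1 was not tested, and in whole liver fewer cells of a type and less RNA per cell cannot be told apart.

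**Figure D2:**
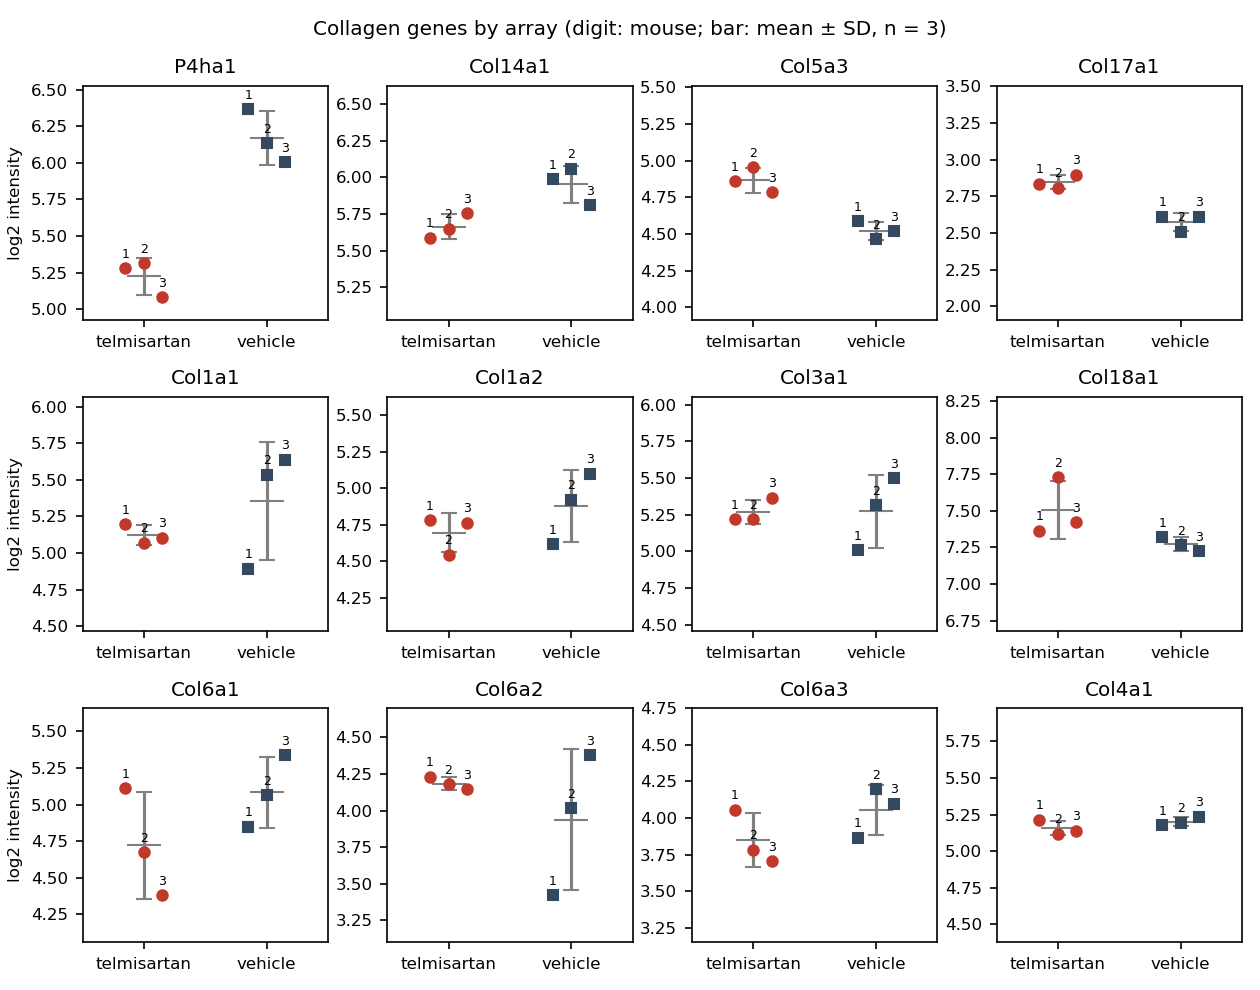
Log2 intensity of 12 members on each array, with telmisartan-treated livers as red circles on the left, vehicle-treated livers as dark squares on the right, the digit giving the mouse and the grey bar the mean ± SD (n = 3 each). Every panel spans 1.6 log2 units, so that the spreads can be set side by side. The groups are apart for P4ha1, Col14a1, Col5a3, Col17a1 and Col18a1, and vehicle 1 lies below all other arrays for Col1a1, Col3a1 and Col6a2.

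Among the 11 fibrillar chains 1 was higher, 0 were lower and 10 were not called, with a median log2 fold change of 0.00. The higher one was Col5a3, the third chain of type V collagen, which takes part in starting new fibrils. Col5a3 was at 4.86, 4.95 and 4.79 in telmisartan-treated livers, against 4.59, 4.46 and 4.52 in vehicle-treated livers, a gap with no overlap. The difference was 0.34 on the log2 scale (standard error 0.10), with a limma p of 0.0092 before adjustment and 0.695 after it, and the call was made without any 1 array and with the methods' t-test. The partner chains of type V did not follow it past the thresholds. Col5a1 differed by -0.04 (95% interval -0.29 to 0.21) on its brighter probe set and by 0.03 on its dimmer one, and Col5a2 differed by -0.07 (95% interval -0.33 to 0.20).

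The chains of type I, the main collagen of scar, were not called on all 6 arrays. Col1a1 was at 5.20, 5.07 and 5.10 in telmisartan-treated livers, against 4.89, 5.53 and 5.64 in vehicle-treated livers. Vehicle 1 was the lowest of all 6 arrays and vehicle 2 and vehicle 3 were the highest, so the treated livers lay between the untreated ones. The log2 fold change of Col1a1 was -0.23 (95% interval -0.66 to 0.20) on all arrays, and single vehicle arrays moved it both ways. Without vehicle 1 it was -0.46 (unadjusted limma p of 0.00395), which is past the thresholds, without vehicle 2 it was -0.14 and without vehicle 3 it was -0.09 (unadjusted limma p of 0.652).
Col1a2, its partner in the type I molecule, had the same order within the vehicle group, with 4.78, 4.55 and 4.77 in telmisartan-treated livers, against 4.62, 4.92 and 5.10 in vehicle-treated livers. Its log2 fold change was -0.18 (95% interval -0.51 to 0.15), with -0.31 without vehicle 1 (unadjusted limma p of 0.0439), -0.11 without telmisartan 2 and -0.07 without vehicle 3 (unadjusted limma p of 0.64). Col3a1, the chain of type III, was at 5.22, 5.22 and 5.37 in telmisartan-treated livers, against 5.01, 5.31 and 5.50 in vehicle-treated livers, with vehicle 1 again lowest. The difference of Col3a1 was -0.01 (95% interval -0.33 to 0.32), and its sign turned to positive without telmisartan 1, telmisartan 2, vehicle 2 or vehicle 3.

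Vehicle 1 was the lowest of the vehicle arrays, or shared the lowest value, for 30 of the 57 members (52.6%). The same held for 4 of the 11 fibrillar chains (36.4%) and for 39.7% of all probe sets. Without vehicle 1, 3 members were lower (Col1a1, Col1a2 and P4ha1), while 4.36% of all probe sets were called lower.

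**Figure D3:**
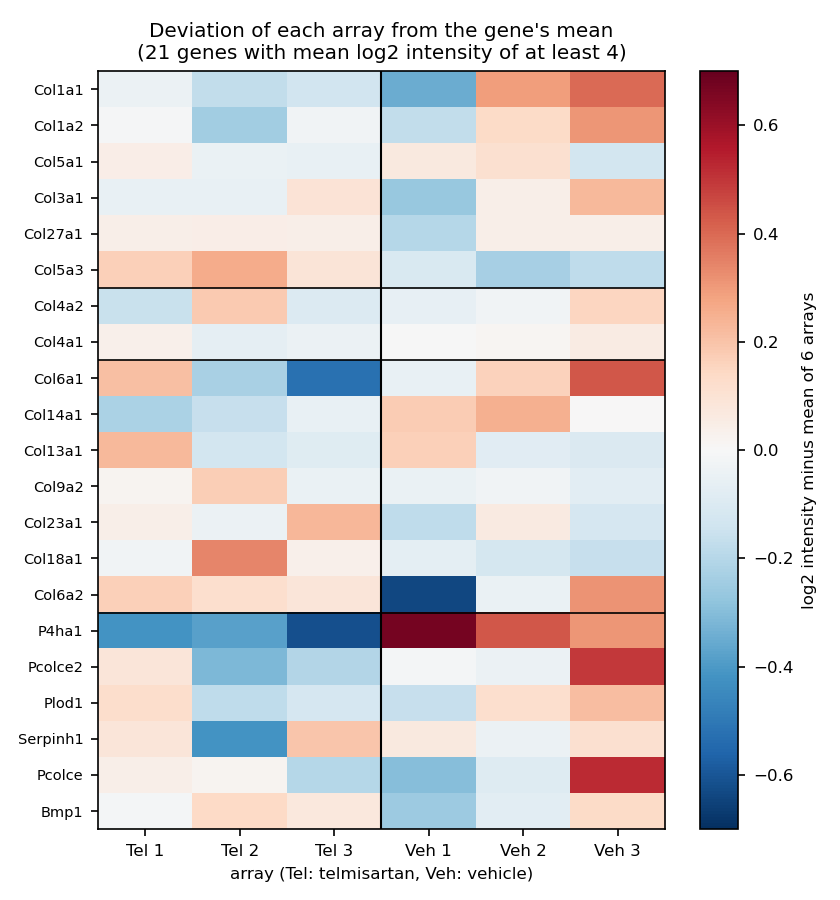
Log2 intensity of each array minus the mean of the 6 arrays, in colour from -0.7 (blue) to 0.7 (red), for the 21 members with a mean log2 intensity of at least 4, with telmisartan arrays left of vehicle arrays and classes parted by lines. The P4ha1 row has the strongest contrast between the groups, and the vehicle 1 cells of Col1a1, Col3a1 and Col6a2 are blue where those of vehicle 3 are red.

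The remaining fibrillar chains (Col2a1, Col11a1, Col11a2, Col24a1 and Col27a1), which are chains of cartilage and other tissues, differed by 0.00 to 0.12, and their means were at or below 4.24. Col27a1 had the same value on 4 of the 6 arrays. Such repeated values (within a relative tolerance of 1e-06) occurred in 12 of the 57 members and in 16.6% of all probe sets.

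The 6 chains of type IV, the basement membrane collagen of vessels and bile ducts and, in small amounts, of the sinusoid wall, gave 0 calls, with a median of -0.05 and a range from -0.05 to 0.15. Col4a1 was at 5.21, 5.12 and 5.14 in telmisartan-treated livers, against 5.18, 5.19 and 5.24 in vehicle-treated livers. Col4a2, which lies head to head with Col4a1 on chromosome 8, was at 4.72, 5.06 and 4.78 with telmisartan, against 4.82, 4.85 and 5.02 with vehicle. The groups overlapped for both, and the 95% intervals of the log2 fold change, -0.26 to 0.18 for Col4a1 and -0.33 to 0.24 for Col4a2, lay inside a 1.5-fold change in either direction. Col4a3, Col4a4, Col4a5 and Col4a6 had means under 3, close to the array median.

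Of the 27 other chains, 1 was lower (Col14a1), 1 was higher and 25 were not called, with a median of 0.01. The higher one was Col17a1, a transmembrane collagen of epithelia, at 2.84, 2.81 and 2.90 in telmisartan-treated livers, against 2.61, 2.51 and 2.61 in vehicle-treated livers. The groups were apart, yet all values lay close to or below the array medians. The difference was 0.27 on the log2 scale (standard error 0.10), with a limma p of 0.0232 before adjustment, and the call was lost without telmisartan 3 or vehicle 2 (p up to 0.0756) and fell under the 1.2-fold threshold when the arrays were centred on their medians.

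Col18a1, a basement membrane chain that hepatocytes make and the precursor of endostatin, was at 7.36, 7.73 and 7.42 in telmisartan-treated livers, against 7.32, 7.27 and 7.23 in vehicle-treated livers. The groups did not overlap, although telmisartan 1 and vehicle 1 were close, and the difference of 0.23 (95% interval -0.05 to 0.52) did not pass the test and was 0.12 without telmisartan 2. Col15a1, its relative in vascular basement membranes, differed by -0.09 (95% interval -0.34 to 0.16), with 4 arrays at the same value.

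Type VI collagen, a beaded microfibril around cells, had its 3 main chains spread in both directions and none called. Col6a1 was at 5.11, 4.67 and 4.38 in telmisartan-treated livers, against 4.85, 5.06 and 5.34 in vehicle-treated livers, a difference of -0.36 (95% interval -0.82 to 0.09). Col6a2 was at 4.23, 4.18 and 4.15 with telmisartan, against 3.42, 4.02 and 4.38 with vehicle, a difference of 0.25 (95% interval -0.24 to 0.74). Within the telmisartan group Col6a1 spread widely and Col6a2 hardly at all, while within the vehicle group vehicle 1 held the lowest value of both.
Single arrays decided these values. Col6a1 was called lower without telmisartan 1 (-0.56, unadjusted limma p of 0.0164), and stood at -0.19 without telmisartan 3 and -0.23 without vehicle 3. Col6a2 was called higher without vehicle 3 (0.46, unadjusted limma p of 0.0372) and stood at -0.01 without vehicle 1. Col6a3 differed by -0.21 (95% interval -0.52 to 0.11). Col8a1, a short chain of vessel walls named here after its values were seen, differed by -0.32 on all arrays and was called lower without telmisartan 1 (-0.59), while it stood at -0.09 without telmisartan 2 (unadjusted limma p of 0.647).

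**Figure D4:**
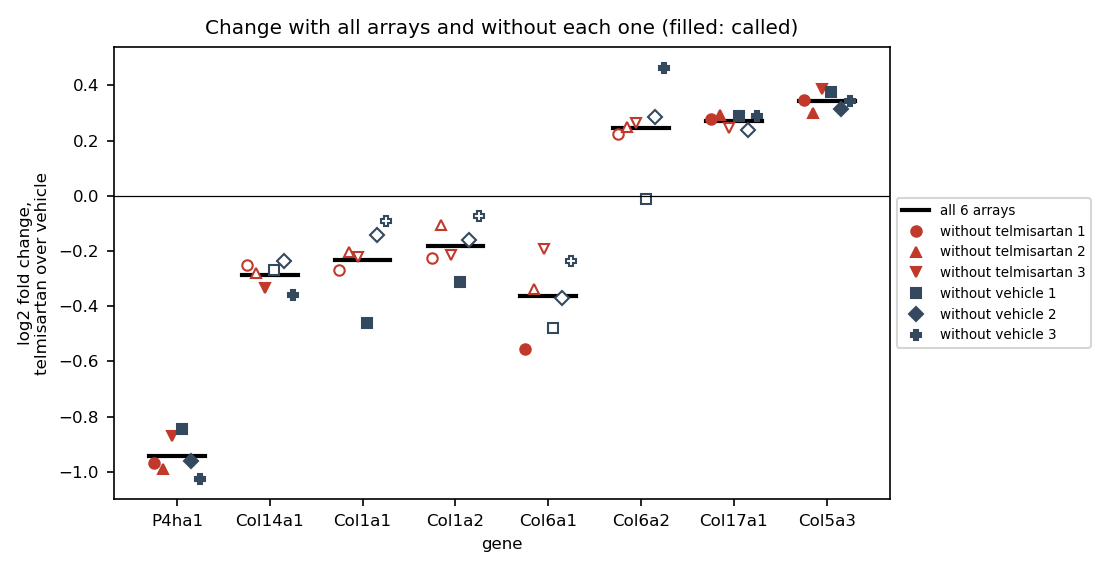
Log2 fold change, telmisartan over vehicle, of 8 members on all 6 arrays (black bar) and with each array left out in turn (red for telmisartan arrays, dark for vehicle arrays). A filled symbol marks a call. The symbols of P4ha1 and Col5a3 are all filled, while Col1a1 and Col1a2 are filled only without vehicle 1.

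The 13 enzymes and helpers gave 1 lower gene, P4ha1, 0 higher ones and a median of -0.09. Among the lysyl hydroxylases, Plod1 was at 6.63, 6.33 and 6.39 in telmisartan-treated livers, against 6.35, 6.63 and 6.72 in vehicle-treated livers, a difference of -0.12 (95% interval -0.43 to 0.20). Plod2, at a mean of 1.92, was among the dimmest members and differed by -0.06. The lysyl oxidases Lox, Loxl1, Loxl3 and Loxl4 differed by 0.03, 0.16, -0.06 and -0.03, and none had a mean over 3.63.

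Serpinh1 was at 4.84, 4.34 and 4.95 in telmisartan-treated livers, against 4.83, 4.71 and 4.87 in vehicle-treated livers, and telmisartan 2 was the low one. Its difference was -0.09 (95% interval -0.47 to 0.28). The procollagen protease Bmp1 differed by 0.13 (95% interval -0.15 to 0.42). Its enhancers differed by -0.09 for Pcolce (95% interval -0.55 to 0.37) and -0.29 for Pcolce2 (95% interval -0.69 to 0.10), and vehicle 3 was the highest array for both, at 5.22 each. Without vehicle 3 the difference of Pcolce2 was -0.12.

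For 51 of the 57 members the limma 95% interval lay inside a 1.5-fold change in either direction. The exceptions were P4ha1, Col1a1, Col6a1, Col6a2, Col8a1 and Pcolce2. Of the members, 36 had a mean log2 intensity under 4 and 21 had a mean of at least 4.

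Other genes of the collagen pathway were read from lists, which were also chosen with earlier results of these data known. Across all probe sets, 3.48% were called lower and 3.07% higher. Of 22 measured genes for collagen folding, modification and export, 1 was lower and 1 was higher, with a median of -0.08. Sparc, a collagen-binding protein of the matrix, was at 5.70, 5.39 and 5.61 in telmisartan-treated livers, against 5.71, 5.91 and 6.14 in vehicle-treated livers, a log2 fold change of -0.35 (standard error 0.14). The highest treated and the lowest untreated liver were almost level. The methods' t-test did not make the call, nor did limma without telmisartan 2 or 3 or vehicle 2 or 3 (p up to 0.129). Tll1, a protease related to Bmp1, was higher by 0.32 at a mean near 2, and its call was lost without telmisartan 1 or 2 or vehicle 2 or 3, with the methods' t-test, with median centring, with cyclic loess and with 8 added before the log.

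Both discoidin domain receptors, the tyrosine kinases that bind fibrillar collagen, were lower among the 11 measured genes for collagen receptors and uptake, where 2 were lower and 0 higher (median -0.07). Ddr2, the receptor of stellate cells and fibroblasts, was at 3.59, 3.20 and 3.13 in telmisartan-treated livers, against 4.00, 3.65 and 4.09 in vehicle-treated livers, a difference of -0.60 on the log2 scale (standard error 0.16) with a limma p of 0.00581 before adjustment. Ddr1, the receptor of epithelia, was at 4.59, 4.31 and 4.07 in telmisartan-treated livers, against 4.82, 4.74 and 5.15 in vehicle-treated livers, a difference of -0.58 on the log2 scale (standard error 0.16) with a limma p of 0.00744 before adjustment. No treated liver reached the lowest untreated one for either gene. Both calls were made without any 1 array and with the methods' t-test, and neither had a limma adjusted p under 0.05 (adjusted p = 0.695 for both). Ddr1 has a further, dim probe set, and with the mean of both its change was -0.26, under the fold threshold. Ddr2 was dim too, at a mean log2 intensity of 3.61, and did not enter the fit filtered at a mean of 4.

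Of 16 measured regulators of collagen transcription, 2 were lower and 0 higher, with a median of -0.09. Tgfb1, the chief fibrogenic cytokine, was at 5.11, 5.15 and 4.78 in telmisartan-treated livers, against 5.14, 5.55 and 5.76 in vehicle-treated livers, a log2 fold change of -0.47 (standard error 0.18). Vehicle 1 was level with telmisartan 1 and 2, and the methods' t-test did not make the call, nor did limma without telmisartan 3, vehicle 2 or vehicle 3 (p up to 0.104). Tgfbr2, the type II receptor of TGF-beta, was at 5.99, 5.82 and 5.89 in telmisartan-treated livers, against 6.11, 6.24 and 6.37 in vehicle-treated livers, with no overlap and a log2 fold change of -0.34 (standard error 0.11). The call of Tgfbr2 was lost without vehicle 3 (p of 0.0553).

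**Figure D5:**
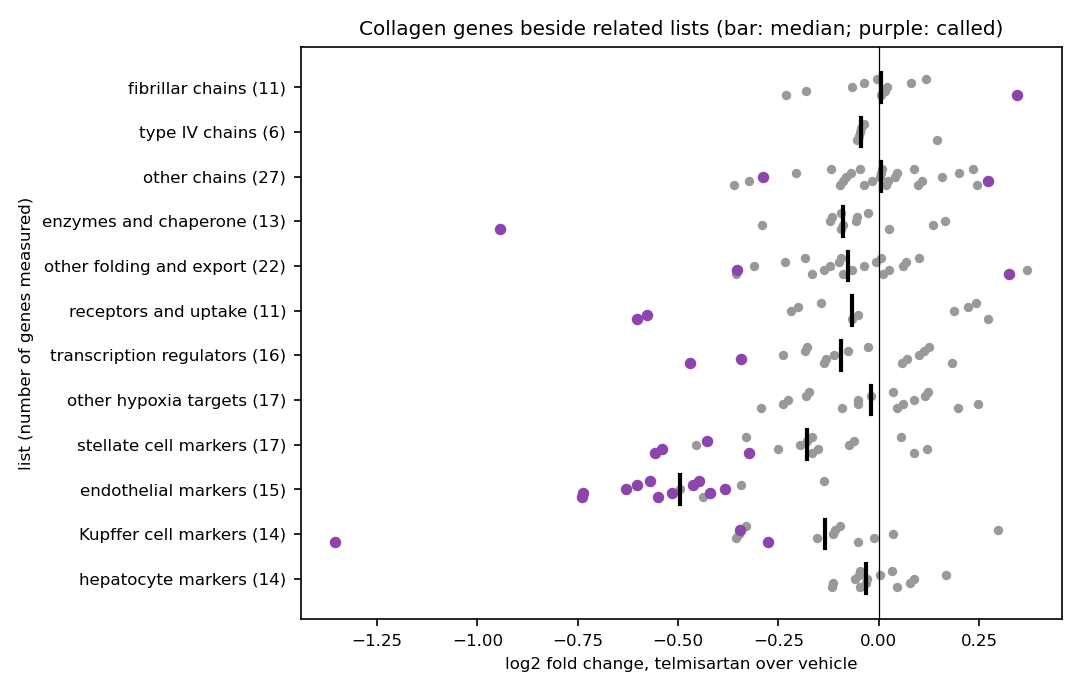
Log2 fold change, telmisartan over vehicle, of each measured gene (point) in the 4 member classes, 4 pathway lists and 4 cell type marker lists, with the median as a bar, called genes in purple and the number of genes in brackets. The medians of the collagen classes lie between -0.09 and 0.01, those of stellate and endothelial markers at -0.18 and -0.50.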

How the data were processed

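Liver RNA of 3 telmisartan-treated and 3 vehicle-treated mice was hybridized to 1 array each. Robust multi-array averaging (RMA) of all arrays was done by the authors, who deposited intensity values on a linear scale for 31873 probe sets. The sources used here do not give the RMA version. The deposited intensities were converted to log2 with no pseudocount.

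The platform table gave exactly 1 symbol to 23094 probe sets, and all of these entered the fit (telmisartan minus vehicle). The fit used lmFit and eBayes of limma 3.58.1 (R 4.3.3) after it was tested on simulated data. There it called 38% of 50 probe sets changed 1.2-fold, 82% of 50 changed 1.5-fold and 94% of 50 changed 2-fold. A call there also required an estimated fold of at least 1.2, so many true 1.2-fold changes miss it at any precision. A gene that was not called can therefore still differ. P-values were 2-sided and adjusted by the Benjamini-Hochberg method across every probe set fitted. The members, lists and markers were chosen with earlier results of these data known. Named were called members, the main liver chains, all enzymes and called genes of the pathway lists, and Col8a1 was added after its values were seen. Alternatives were the methods' t-test (equal variances), a variance trend, a filter at a mean log2 of 4, median centring, cyclic loess, the mean of a gene's probe sets, all deposited probe sets, other thresholds, a pseudocount of 8, a replicate block and leaving out each array.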

Additional observations from a re-analysis of the deposited data

How the results depend on the processing

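The counts of 2 lower and 2 higher members were small and moved with several choices. Adding 8 before the log gave 1 lower (P4ha1) and 1 higher (Col5a3). A filter at a mean log2 intensity of 4, centring on the array median and cyclic loess each gave 1 higher, since Col17a1 was filtered out or fell under 1.2-fold. A 1.5-fold threshold gave 1 lower and 0 higher, and an adjusted p under 0.05 gave 0 and 0 (limma, with 2 and 2 at an unadjusted p under 0.05 and with the methods' t-test). Without 1 array the counts ranged from 1 to 3 lower and from 1 to 3 higher. The share of all probe sets moved too, from 2.61 to 4.36% lower and from 2.61 to 3.49% higher. That share was not counted for the pseudocount, the filter, median centring, cyclic loess, the 1.5-fold threshold or the replicate block. Member counts under those settings therefore cannot be set against it. The groups were apart for 8 members with cyclic loess, against 5 with the main values. The share of all probe sets apart was not counted for cyclic loess, so the rise cannot be set against it. The median of the other chains was 0.10 over the 7 with a mean of at least 4, since fewer genes entered.

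The replicate block gave 1 lower member, with Col14a1 at an unadjusted p of 0.0608, and changed no other call of a member. Same-numbered mice deviated from their group means with correlations of 0.04, -0.02 and 0.03, so the numbers were not taken as pairs. With cyclic loess, Col3a1 stood at 0.013 and Lox at -0.0025, a turned sign for both. Among the named genes, the sign turned for 10 when 1 array was left out. Their changes ranged from -0.14 to 0.11 for Col3a1, -0.15 to 0.019 for Col4a2, -0.11 to 0.011 for Col5a1 and -0.13 to 0.022 for Col5a2. Col6a2, at 0.25 on all arrays, ranged from -0.012 to 0.46. Lox ranged from -0.044 to 0.12, Loxl3 from -0.17 to 0.11 and Loxl4 from -0.19 to 0.080. For Pcolce the range was -0.26 to 0.15 and for Serpinh1 -0.21 to 0.093. P4ha1 and Col5a3 were called under every alternative fit run at the 1.2-fold threshold. The cause of the other changes was not tested.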
